A study of Homo sapiens with 6 samples.

Results

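Transcripts of the YAP, TAZ and TEAD machinery and of its best known target genes were compared between parental LNCaP cells and an enzalutamide-resistant derivative, LNCaP-enzaR. The group was defined by gene symbol, with earlier results of these data known: the coactivators YAP1 and WWTR1 (which encodes TAZ), the DNA-binding partners TEAD1, TEAD2, TEAD3 and TEAD4, and the targets CCN1, CCN2, AMOTL2 and LATS2. These are 10 of the 35554 genes in the table, and all 10 had enough reads to be tested. LNCaP is an established line from a metastasis of human prostate cancer. Enzalutamide is a drug against androgen signalling. Both groups had 3 flasks, harvested for RNA at about 70% confluency, and neither carried an engineered allele. LNCaP-enzaR was selected by prolonged culture with enzalutamide and then kept on less of it, so the comparison is of 1 resistant line with its parent, and whether the drug was present at harvest is not given in the sources used here. The labels call the flasks biological replicates without saying that they came from separate passages, so p-values measure the spread between these flasks.

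YAP and TAZ carry signals on cell density, shape and stiffness of the surroundings into the nucleus. The Hippo kinases MST and LATS phosphorylate them and so keep them in the cytoplasm. When that restraint is lifted, YAP and TAZ bind TEAD proteins on DNA and switch on genes for growth, matrix and cytoskeleton. Among these genes are AMOTL2 and LATS2, whose products in turn restrain YAP and TAZ. Transcript levels do not report phosphorylation or location of the proteins, which are the main points of control in this pathway.

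The DNA element through which TEAD proteins act is short, and it is shown here because CCN2, one of the genes below, carries it 3 times. TEAD proteins recognise cores of the type GGAATG. Promoter sequence from RefSeq (GRCh38.p14) was matched for 7 of the 10 genes, with 10 entries, and entries for TEAD1, TEAD4 and CCN1 were not matched. In the 250 bases before the start of transcription, read 5′ to 3′ on the strand of the gene, GGAATG was searched on both strands. It occurred in 3 of the 10 entries, those of CCN2, YAP1 and 1 entry of AMOTL2, and in 11.9% of all 35116 promoters. At least 3 cores stood in 0.0826% of all promoters, and CCN2 was among them. Capitals mark the core (its reverse complement in AMOTL2).
CCN2 promoter, minus strand, chr6:131951373-131951622: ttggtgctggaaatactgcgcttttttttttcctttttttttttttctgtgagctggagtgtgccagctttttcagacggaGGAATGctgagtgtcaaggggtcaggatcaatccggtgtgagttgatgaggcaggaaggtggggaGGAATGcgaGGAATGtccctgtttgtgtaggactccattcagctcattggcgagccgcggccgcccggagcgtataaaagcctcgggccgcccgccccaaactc
YAP1 promoter, plus strand, chr11:102110197-102110446: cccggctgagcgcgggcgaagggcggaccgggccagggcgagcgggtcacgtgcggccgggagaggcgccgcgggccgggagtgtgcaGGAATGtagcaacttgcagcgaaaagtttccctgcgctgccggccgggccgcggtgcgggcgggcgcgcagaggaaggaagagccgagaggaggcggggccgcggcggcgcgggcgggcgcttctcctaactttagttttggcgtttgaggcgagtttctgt
AMOTL2 promoter, 30 bases around the core, minus strand, chr3:134374499-134374528: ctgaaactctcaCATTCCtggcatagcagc
In CCN2 the cores began at −169, −104 and −95 from the start. In YAP1 the core began at −162, and in AMOTL2 its reverse complement began at −69. The AP-1 motif TGANTCA and the CArG box of SRF, which often stand beside TEAD sites, were in 0 of the 10 entries and in 6.57% and 1.16% of all promoters. A match is a description of letters and not evidence of binding, which was not measured.

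Of the 10 transcripts, 6 fell in LNCaP-enzaR. WWTR1 and AMOTL2 were 35.4 and 32.3 times lower, TEAD2, TEAD4 and CCN1 were 2.65 to 3.62 times lower, and LATS2 was 1.51 times lower. YAP1, TEAD1, TEAD3 and CCN2 did not pass the threshold. Counts were compared with edgeR's quasi-likelihood test, with Benjamini-Hochberg adjustment over the 19711 genes tested, and the threshold was an adjusted p no higher than 0.05 together with a difference of 1.5-fold or more. Thus 6 of 10 genes passed, 6 lower and 0 higher, whereas 42.7% of all tested genes passed, 19.5% lower and 23.3% higher. WWTR1 and AMOTL2 are among the 6, but had enough reads for the test only through the parental libraries. All 10 estimates were below 0, with a median log2 fold change of −1.02, beside 0.01 over all tested genes. WWTR1 and AMOTL2 count in this median, so it is given as a description. The 95% intervals of YAP1, TEAD1, TEAD3 and CCN2 included 0, and the sign of TEAD3 rested on the second resistant library. The signs are therefore not evidence of a shift shared by all 10 genes. The values of the lines did not overlap for 8 of the 10 genes, which was so for 70.6% of all tested genes. Levels are in CPM (counts per 1000000 counts of the scaled library), always in the order of replicates 1 to 3, and each log2 fold change sets LNCaP-enzaR against parental cells, so that negative values are lower in the resistant line, and is followed by its standard error (SE).

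**Figure D1:**
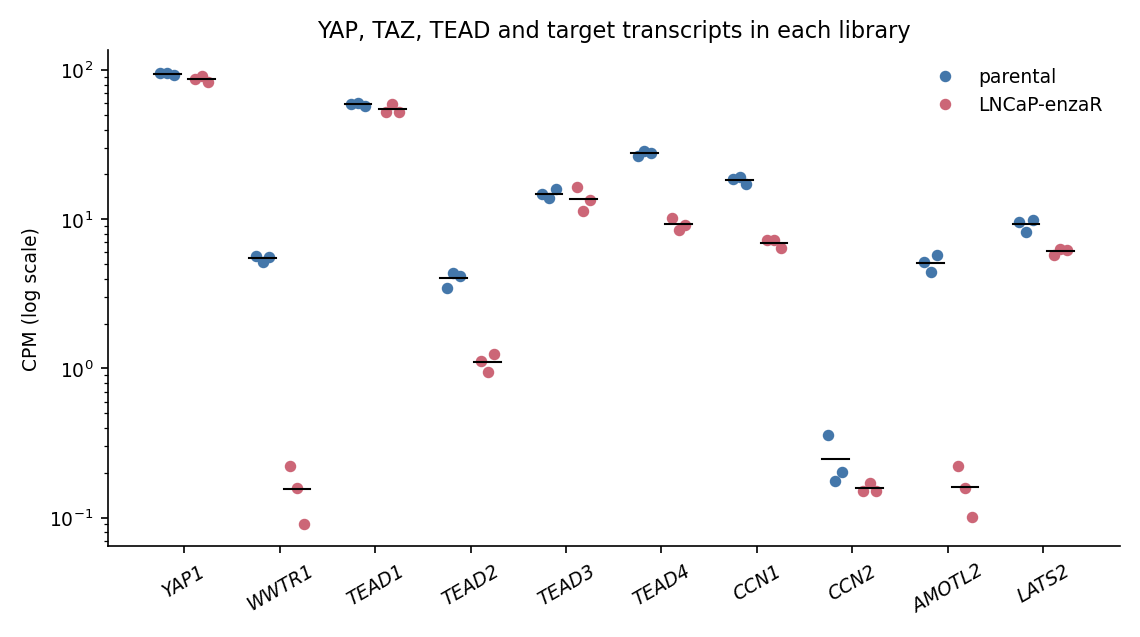
CPM (log axis) of each of the 10 transcripts in each library, with points for the 3 parental and 3 LNCaP-enzaR libraries and a black bar for the mean. WWTR1 and AMOTL2 sit near 5 CPM in parental cells and near 0.16 CPM in LNCaP-enzaR, whereas the points of YAP1, TEAD1 and TEAD3 lie close together.

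Libraries held 77759122 to 98616465 counts, so that 3 counts equalled 0.0302 to 0.0382 CPM. Mitochondrial genes took 6.72% to 7.06% of the counts in parental cells and 14.7% to 15.5% in LNCaP-enzaR, and without them 6 of the 10 genes still passed. Of the luminal prostate markers, KLK3 had 1190 ± 42.1 CPM in the parent and 141 ± 9.26 CPM in the resistant line, KRT8 had 397 ± 19.6 and 886 ± 121.6 CPM, and KRT18 had 293 ± 10.4 and 414 ± 49.7 CPM (SD, n = 3). Markers of other cell types summed to 12.3 to 14.1 against 12.1 to 16.2 CPM for basal epithelium (1 of 2 tested fell), 17.0 to 20.2 against 17.2 to 18.0 CPM for fibroblasts and smooth muscle (3 of 6 tested rose and 1 fell), and 5.76 to 6.12 against 3.94 to 4.39 CPM for endothelium (0 of 1 tested passed). Some of these genes were plainly present. Among the stromal markers, COL1A1 fell from 13.4 ± 1.5 to 4.29 ± 0.436 CPM, while ACTA2 rose from 2.00 ± 0.397 to 8.71 ± 0.256 CPM, and LUM and PDGFRB also rose (log2 fold changes 1.78 and 1.43). The basal keratin KRT14 held 43 to 134 counts a library and the endothelial gene VWF 345 to 555, whereas TP63, KRT5, PDGFRA and PECAM1 held at most 1, 2, 7 and 4 counts. Neuroendocrine markers summed to 1.99 to 2.34 against 3.11 to 3.44 CPM (1 of 2 tested rose). The one that rose was SCG3, with 0 to 3 counts in parental libraries and 18 to 33 in LNCaP-enzaR. It had enough reads for the test through LNCaP-enzaR alone, so its rise is given as a description. Beside the counts of these marker lists, 23.3% of all tested genes rose and 19.5% fell. The lists are too short to be compared with those shares. The part of these markers' cell types in the results was not tested. In bulk RNA, fewer cells of a type and less RNA per cell cannot be told apart.

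The coactivators differed from each other. YAP1 (ENSG00000137693.14, chromosome 11, 102110447 to 102233424, plus strand) had 95.8, 96.1 and 92.2 CPM in parental cells and 87.1, 91.5 and 83.0 CPM in LNCaP-enzaR. Each resistant library was below each parental library, but by little. The log2 fold change was −0.12 (SE 0.057, 95% interval −0.24 to 0.00, adjusted p = 0.0825 by edgeR), a change of −7.91% with an interval from −15.5% to 0.304%. WWTR1 (ENSG00000018408.15, chromosome 3, 149517235 to 149736714, minus strand) had 5.69, 5.21 and 5.56 CPM in parental cells and 0.220, 0.159 and 0.0907 CPM in LNCaP-enzaR. These rested on 437 to 527 and on 9 to 19 counts, and the lines stood far apart. TAZ transcripts were thus 35.4 times lower, from 5.49 ± 0.25 to 0.156 ± 0.0648 CPM (SD, n = 3), which is −5.14 in log2 (SE 0.218, adjusted p = 5.89e-11 by edgeR). Only 0.736% of all tested genes, 145 with WWTR1 included, had an estimate at least as low. The resistant counts alone were too few for the test, so WWTR1 was tested through its parental libraries. Its p-value and rank are therefore given as a description.

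YAP1 was already the more abundant coactivator in the parent. Per kilobase of exon, YAP1 made up 95.8% ± 0.228 of the summed YAP1 and WWTR1 level in the parent and 99.9% ± 0.0542 in the resistant line (SD, n = 3). Per kilobase of coding sequence its share was 93.6% ± 0.338 and 99.8% ± 0.0838. The log2 ratio of WWTR1 to YAP1 counts, in which sequencing depth cancels, was −4.07, −4.20 and −4.05 in parental libraries and −8.59, −9.12 and −9.76 in LNCaP-enzaR. The groups did not overlap, and the difference of −5.05 had an exact two-sided permutation p of 0.10, the smallest that 3 against 3 libraries allow. Exons on the opposite strand cover 10.1% of the exonic bases of YAP1 and 9.05% of those of WWTR1 (WWTR1-AS1), and since the strand setting of the counting is not stated, reads from such partners cannot be told apart.

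TEAD proteins bring YAP and TAZ to DNA, and the family split into members that fell and members that did not pass. TEAD4 (ENSG00000197905.10, chromosome 12, 2959330 to 3040676, plus strand) had 26.7, 28.5 and 27.7 CPM in parental cells and 10.2, 8.51 and 9.16 CPM in LNCaP-enzaR. The lines did not overlap, and TEAD4 fell by 1.57 on the log2 scale (SE 0.081, edgeR adjusted p = 4.89e-10), which is 2.98 times lower. TEAD2 (ENSG00000074219.14, chromosome 19, 49340595 to 49362457, minus strand) had 3.45, 4.39 and 4.20 CPM in parental cells and 1.12, 0.940 and 1.25 CPM in LNCaP-enzaR. It was 3.62 times lower, again without overlap (log2 fold change −1.86, SE 0.163, edgeR adjusted p = 1.56e-07). Exons of CD37, a leukocyte tetraspanin gene on the opposite strand, cover 10.7% of the exonic bases of TEAD2, and CD37 itself fell from 130, 190 and 121 counts to 17, 14 and 12 (log2 fold change −3.40, edgeR adjusted p = 1.17e-07). The part of CD37 reads in the TEAD2 counts was not tested.

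TEAD1 and TEAD3 differed less between the lines than TEAD2 and TEAD4. TEAD1 (ENSG00000187079.20, chromosome 11, 12674421 to 12944737, plus strand), a widely expressed family member, had 59.4, 60.4 and 57.8 CPM in parental cells and 52.7, 59.1 and 52.3 CPM in LNCaP-enzaR. The second resistant library lay within the parental range, and the log2 fold change was −0.12 (SE 0.064, 95% interval −0.25 to 0.02, edgeR adjusted p = 0.128). Without that library it was −0.17 (edgeR adjusted p = 0.0302), still under 1.5-fold. TEAD3 (ENSG00000007866.22, chromosome 6, 35473597 to 35497079, minus strand) had 14.7, 13.8 and 15.9 CPM in parental cells and 16.5, 11.3 and 13.6 CPM in LNCaP-enzaR. The resistant libraries lay on either side of the parental ones, and differed by −0.10 in log2 (SE 0.115, 95% interval −0.35 to 0.15, edgeR adjusted p = 0.457). The sign of this estimate rested on the second resistant library, without which it was 0.023 (edgeR adjusted p = 0.860). Without the first resistant library it was −0.24 (edgeR adjusted p = 0.0149), still under 1.5-fold.

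**Figure D2:**
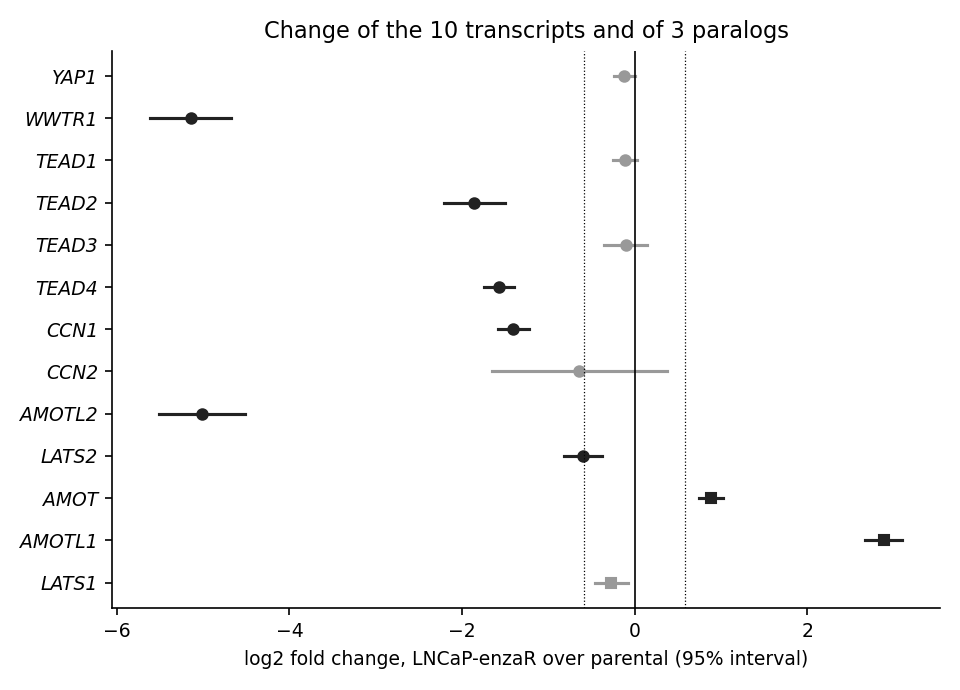
Log2 fold change (LNCaP-enzaR over parental) of the 10 transcripts (circles) and of the paralogs LATS1, AMOT and AMOTL1 (squares), with 95% intervals as bars, black where the threshold was passed and grey where not. Dotted lines mark a fold of 1.5 in each direction; WWTR1 and AMOTL2 lie near −5 and AMOTL1 at 2.88.

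The make-up of the TEAD pool differed between the lines. Per kilobase of exon, TEAD4 gave 50.9% ± 0.840 of the summed TEAD level in the parent and 29.0% ± 0.717 in the resistant line (SD, n = 3). The TEAD1 share was 23.2% ± 0.772 and 36.5% ± 4.67, the TEAD3 share 20.3% ± 1.44 and 31.9% ± 3.86, and the TEAD2 share 5.63% ± 0.585 and 2.63% ± 0.360. The summed level went from 23.9 ± 0.527 to 14.1 ± 0.992 CPM per kilobase. The leading member depended on the length used, because much of the long TEAD1 transcript is not coding. Per kilobase of coding sequence, TEAD1 led in both lines, with 56.4% ± 1.14 and 69.7% ± 4.30, and TEAD4 went from 26.3% ± 0.507 to 11.8% ± 1.04. In either scale the TEAD4 share was lower in every resistant library than in every parental library. Shares within a family are tied to each other, so a higher TEAD1 share is not a higher TEAD1 level.

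**Figure D3:**
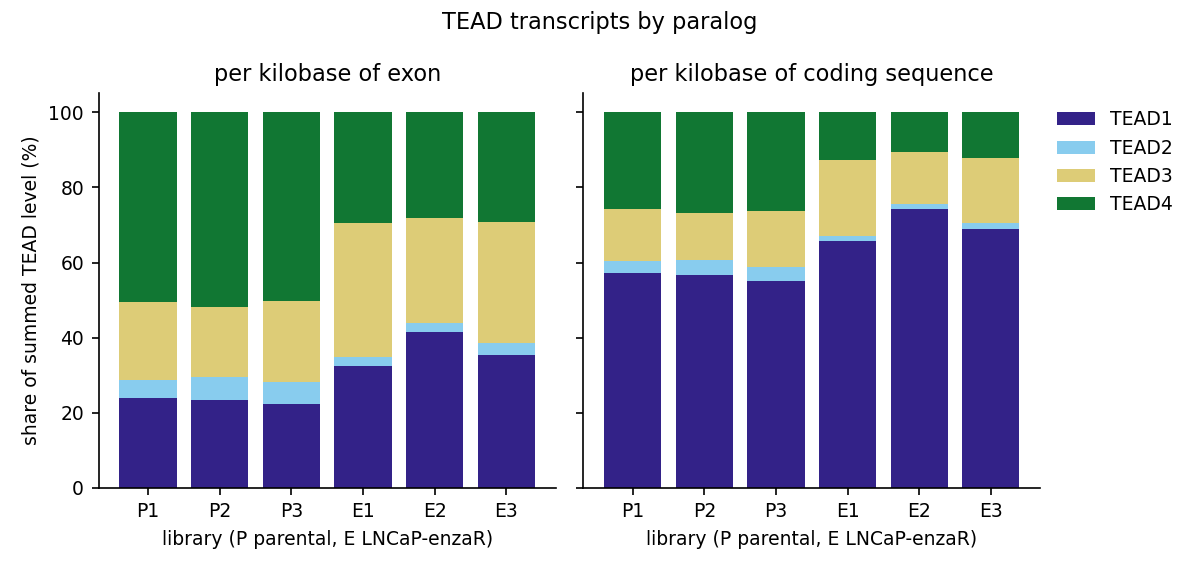
Share (%) of each TEAD gene in the summed TEAD level of each library (P1 to P3 parental, E1 to E3 LNCaP-enzaR), per kilobase of exon on the left and of coding sequence on the right. The TEAD4 segment shrinks from 50.9% to 29.0% on the left and from 26.3% to 11.8% on the right.

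Among the targets, AMOTL2 and CCN1 were clearly lower. AMOTL2, an angiomotin-family scaffold that binds YAP at cell junctions (ENSG00000114019.15, chromosome 3, 134355347 to 134375479, minus strand), had 5.15, 4.43 and 5.80 CPM in parental cells and 0.220, 0.159 and 0.101 CPM in LNCaP-enzaR. These came from 477, 403 and 456 counts against 19, 14 and 10, with no overlap. It was 32.3 times lower (log2 fold change −5.01, SE 0.230, edgeR adjusted p = 1.34e-10), a change close in size to that of WWTR1. AMOTL2 too was tested through its parental libraries, so its p-value is likewise given as a description. CCN1, a secreted matrix-associated protein also called CYR61 (ENSG00000142871.18, chromosome 1, 85580761 to 85584589, plus strand), had 18.7, 19.3 and 17.4 CPM in parental cells and 7.29, 7.21 and 6.42 CPM in LNCaP-enzaR. Every resistant library was below every parental one. CCN1 fell by 1.40 on the log2 scale (SE 0.085, edgeR adjusted p = 2.70e-09), which is 2.65 times lower.

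CCN2 and LATS2 gave less firm values. CCN2, the close relative of CCN1 also called CTGF (ENSG00000118523.6, chromosome 6, 131948176 to 131951372, minus strand), had only 33, 16 and 16 counts in parental cells and 13, 15 and 15 in LNCaP-enzaR. In CPM these were 0.357, 0.176 and 0.204 against 0.151, 0.170 and 0.151, so that the first parental library stood above the other five. The log2 fold change was −0.64 (SE 0.471, 95% interval −1.66 to 0.37, edgeR adjusted p = 0.247), and −0.27 without that library (adjusted p = 0.692). A difference of CCN2 was therefore not detectable at this depth. Exons of a gene on the opposite strand cover 11.9% of the exonic bases of CCN2, and reads from that gene cannot be told apart. The CCN2 promoter is the one with 3 cores shown above. LATS2, a kinase that phosphorylates YAP and TAZ (ENSG00000150457.9, chromosome 13, 20973036 to 21061586, minus strand), had 9.59, 8.21 and 9.92 CPM in parental cells and 5.74, 6.33 and 6.24 CPM in LNCaP-enzaR. The lines did not overlap, and the difference of −0.60 in log2 (SE 0.10, adjusted p = 0.000108 by edgeR) was just past the limit of 1.5-fold. It fell short of that limit without parental replicate 1 (−0.57), parental replicate 3 (−0.55) or LNCaP-enzaR replicate 1 (−0.55).

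Levels between genes can be set side by side only per length. Per kilobase of exon in parental cells, the order was YAP1 (15.0 ± 0.342 CPM per kilobase), TEAD4 (12.2 ± 0.396), TEAD1 (5.54 ± 0.122), CCN1 (4.99 ± 0.264), TEAD3 (4.86 ± 0.342), LATS2 (1.65 ± 0.161), TEAD2 (1.35 ± 0.167), AMOTL2 (0.792 ± 0.106), WWTR1 (0.657 ± 0.0299) and CCN2 (0.105 ± 0.0416; SD, n = 3). CCN1 and TEAD3, and also LATS2 and TEAD2, overlapped in their values. In LNCaP-enzaR the order became YAP1 (13.8 ± 0.673), TEAD1 (5.11 ± 0.358), TEAD3 (4.52 ± 0.854), TEAD4 (4.09 ± 0.376), CCN1 (1.89 ± 0.130), LATS2 (1.09 ± 0.0569), TEAD2 (0.371 ± 0.0523), CCN2 (0.0672 ± 0.00468), AMOTL2 (0.0247 ± 0.00922) and WWTR1 (0.0187 ± 0.00775). TEAD1, TEAD3 and TEAD4 overlapped as neighbours there, as did AMOTL2 and WWTR1. By coding length several places differed. TEAD1 stood second in both lines, and WWTR1 in parental cells, at 4.22 ± 0.192 CPM per kilobase, stood above TEAD2 (2.86 ± 0.355), LATS2 (2.83 ± 0.277) and AMOTL2 (2.04 ± 0.274).

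The paralogs of LATS2 and AMOTL2 were examined beside them. LATS1, the other LATS kinase, had 53.6 ± 3.14 CPM in the parent and 44.4 ± 5.93 CPM in the resistant line (SD, n = 3), a log2 difference of −0.27 (SE 0.088, adjusted p = 0.0143 by edgeR) that stayed under 1.5-fold. The log2 ratio of LATS2 to LATS1 counts went from −2.54 ± 0.159 to −2.86 ± 0.125, a difference of −0.32. AMOTL1 rose where AMOTL2 fell, with 2.64, 2.74 and 2.25 CPM in parental cells and 18.7, 18.0 and 19.8 CPM in LNCaP-enzaR. It was 7.38 times higher (log2 fold change 2.88, SE 0.099, edgeR adjusted p = 7.04e-12). AMOT, the founding angiomotin, was 1.85 times higher (18.4 ± 0.429 to 34.0 ± 1.41 CPM, log2 fold change 0.88, SE 0.067, edgeR adjusted p = 2.87e-08). The log2 ratio of AMOTL2 to AMOTL1 went from 1.01 ± 0.337 to −6.90 ± 0.601, and that of CCN2 to CCN1 from −6.26 ± 0.527 to −5.42 ± 0.105. The 4 ratios tested each had an exact two-sided permutation p of 0.10, also 0.10 after Benjamini-Hochberg adjustment.

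Genes that control YAP and TAZ were tested as 2 lists. Of the 6 core kinase genes, 1 passed, beside 42.7% of all tested genes, and their median log2 fold change was −0.09. That gene was STK3 (the kinase MST2), at 23.1 ± 1.62 and 53.7 ± 5.09 CPM (log2 fold change 1.22, edgeR adjusted p = 6.81e-09). STK4 (the kinase MST1) was at 38.9 ± 1.37 and 27.0 ± 1.87 CPM, with a log2 fold change of −0.53 that did not reach 1.5-fold. The scaffold SAV1 and the adaptors MOB1A and MOB1B had log2 fold changes of −0.26, 0.13 and 0.09, and did not pass. Exons of ATL1 on the opposite strand cover 31.9% of the exonic bases of SAV1. Of 19 upstream regulators tested, 5 rose, 3 fell and 11 did not pass (median −0.20), so that 8 of 19 passed, a share near the 42.7% of all tested genes. Those that fell were the kinases TAOK3 (−1.64) and MAP4K4 (−0.94), which can act on the MST and LATS step, and AJUBA (−1.13), a LIM protein that restrains LATS. The highest after AMOTL1 were WWC3, a relative of the scaffold KIBRA, and FRMD6, a FERM-domain protein, at 2.83 and 2.58 times the parental level.

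VGLL4, which competes with YAP for TEAD, was the only gene of the Vestigial-like list that could be tested. It had 38.2, 36.2 and 36.7 CPM in parental cells and 69.5, 63.2 and 63.5 CPM in LNCaP-enzaR. VGLL4 was 1.77 times higher without overlap (log2 fold change 0.82, SE 0.063, edgeR adjusted p = 3.28e-08), though 23.8% of its exonic bases lie in exons of other genes.

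Other genes are described as YAP and TAZ targets in various cells. Of 18 listed, 13 were tested, 4 rose, 5 fell and 4 did not pass, with a median log2 fold change of −0.02. Over all tested genes 23.3% rose and 19.5% fell. CCDC80, a matrix protein, had 0.542 ± 0.153 CPM in the parent and 15.4 ± 1.45 CPM in LNCaP-enzaR, 28.4 times higher (edgeR adjusted p = 4.32e-12). ARHGEF17, a guanine nucleotide exchange factor, and the stress-response gene GADD45A also rose, by 1.47 and 0.92 on the log2 scale. FJX1 (−1.21), the ARF regulator ASAP1 (−0.90) and PTPN14 (−0.90), a phosphatase that binds YAP, were the lowest of those with a mean of at least 1 CPM. Below that mean, RBMS3 (−1.42) also fell and MYOF (1.31) also rose. IGFBP3, which binds insulin-like growth factors and was the most abundant of the list, had 566 ± 18.7 and 557 ± 29.1 CPM (log2 fold change −0.02, edgeR adjusted p = 0.738). ANKRD1 and AXL, often used as readouts of YAP, held at most 6 and 8 counts in any library and were not tested. Of the 4 other CCN genes, only CCN3 had enough reads for the test, and it did so through LNCaP-enzaR alone, with 66 to 71 counts there and 1 to 8 in parental libraries, so that its difference is given as a description.

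**Figure D4:**
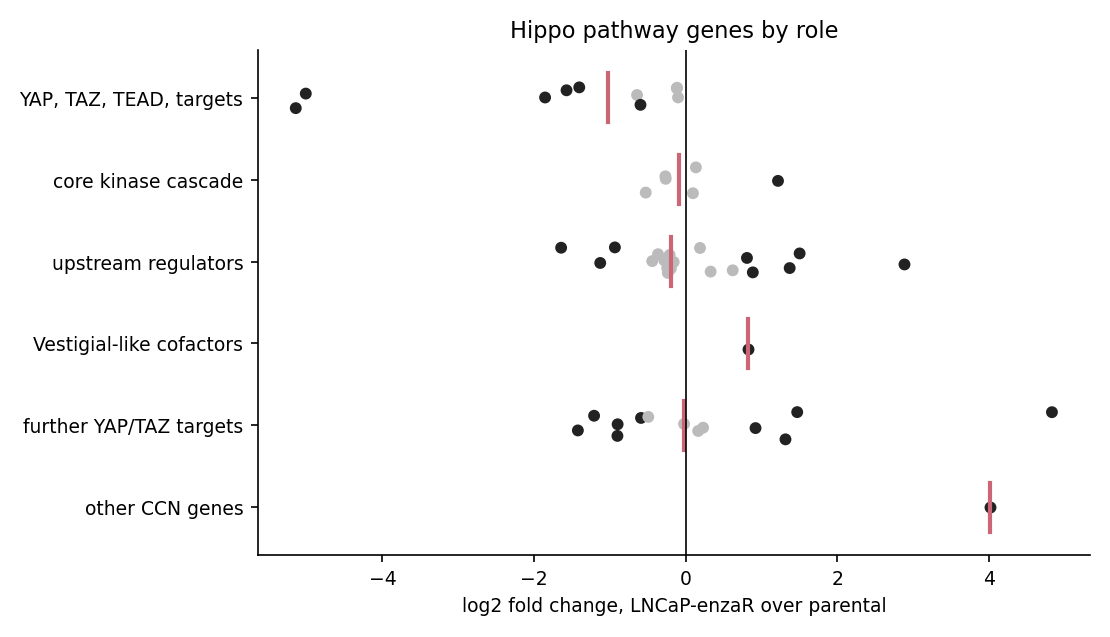
Log2 fold change (LNCaP-enzaR over parental) of each tested gene in the group and in the further pathway lists, 1 point per gene, black where the threshold was passed and grey where not, with the median as a red bar. The vertical scatter within a list has no meaning. The median is −1.02 for the 10 genes, with WWTR1 and AMOTL2 included, and −0.02 for the further targets.

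The nearest tested protein-coding gene on each side was also examined for the 10 genes, since WWTR1 and AMOTL2 lie on the same chromosome, 15.1 Mb apart. Of these 20 neighbours, 8 fell, 4 rose and 8 did not pass, where 19.5% of all tested genes fell and 23.3% rose. Among those that rose, MOXD1 beside CCN2 had 0 CPM in the parent and 0.261 ± 0.106 CPM in LNCaP-enzaR. MOXD1 was thus tested through LNCaP-enzaR alone, and its rise is given as a description. Among those that fell, SLC6A16 beside TEAD2 had only 0.157 ± 0.0867 CPM in LNCaP-enzaR. Beside WWTR1, TM4SF1, a membrane protein of the transmembrane-4 family that lies 139.5 kb away (chromosome 3, 149369022 to 149377692), had 9.38 ± 0.617 CPM in the parent and 0.478 ± 0.135 CPM in the resistant line, a fall of −4.31 in log2 (SE 0.169, adjusted p = 2.61e-11 by edgeR). On its other side COMMD2, only 1.76 kb away, went from 42.3 ± 1.45 to 29.4 ± 1.96 CPM and stayed under 1.5-fold (−0.52). Beside AMOTL2, the log2 fold change was −0.83 for RYK and −0.14 for ANAPC13, and the latter did not pass. The 49 tested coding genes between AMOTL2 and WWTR1 had a median of 0.04 in log2, and 9 of them fell and 13 rose, shares near those of all tested genes. Within 1000 kb, a window chosen after the values were seen, 1 of 14 genes around WWTR1 fell and 2 rose, and 4 of 9 around AMOTL2 fell and 2 rose. Beside TEAD4, TULP3 fell by 1.12 on the log2 scale, and beside TEAD1, whose own level did not pass, the focal adhesion gene PARVA went from 22.4 ± 0.510 to 1.51 ± 0.256 CPM (−3.88, edgeR adjusted p = 1.27e-12).

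**Figure D5:**
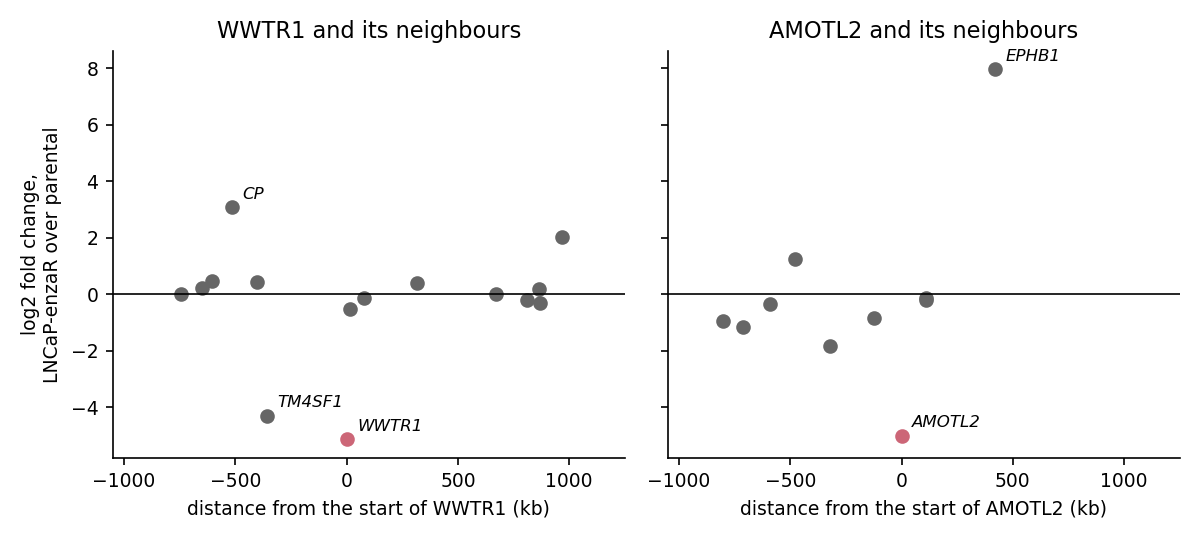
Log2 fold change (LNCaP-enzaR over parental) of tested protein-coding genes against their distance in kb from the start of WWTR1 and of AMOTL2, which are in red. TM4SF1 at −4.31 is the gene nearest in size to WWTR1 in its window.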

How the data were processed

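Polyadenylated RNA of 3 parental LNCaP and 3 LNCaP-enzaR flasks was sequenced as paired 150 bp reads. The authors trimmed reads with Cutadapt, aligned them to GRCh38.p13 with STAR, and counted them per GENCODE gene with featureCounts. Values in the deposited table are unnormalized counts. Strand and multimapping settings are not given in the sources used here. Group and replicate number came from sample titles.

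Counts were analysed with edgeR 4.0.16 (R 4.3.3): filterByExpr kept 19711 genes, libraries were scaled by TMM, and lines were compared by the quasi-likelihood F-test with robust dispersions and no covariate, with Benjamini-Hochberg adjustment. The limits (adjusted p 0.05, 1.5-fold) follow the study's methods, which name DESeq2. DESeq2 1.42.0 was run as an alternative. The SE is the log2 fold change divided by the root of F. Ratios used counts plus 0.5. Intervals and limits cover counting and replicate error only; amplified reads are not independent molecules. Exon and coding lengths came from GENCODE v44, in which 10 of the 10 genes had the same span.

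The 10 genes, the pathway and marker lists and the naming rule were chosen with earlier results of these data known. The rule names the 10 genes, the paralogs LATS1, AMOT and AMOTL1, the nearest tested coding genes, and from each list the 3 highest and 3 lowest genes past the threshold with at least 1 CPM, or all where at most 6 were tested. IGFBP3, ANKRD1, AXL, RBMS3, MYOF, the marker genes and the CD37 overlap were named after their values were seen.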

Additional observations from a re-analysis of the deposited data

How the results depend on the processing

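Under DESeq2, other scalings (RLE, library totals, upper quartile), other filters (none, a minimum of 10 counts per library, coding genes, no mitochondrial genes) and without each library in turn, WWTR1, AMOTL2, TEAD2, TEAD4 and CCN1 stayed past the threshold wherever they were fitted. WWTR1 has no value with the minimum of 10 counts. Upper-quartile scaling shifted all genes by 0.10 on the log2 scale and moved the share of higher calls from 54.5% to 60.9%. LATS2 was short of 1.5-fold under upper-quartile scaling (−0.50), with the minimum of 10 counts (−0.58) and with protein-coding genes only (−0.58), and ranged from −0.68 to −0.55 when each library was left out. TEAD3 ranged from −0.24 to 0.023 when each library was left out. YAP1 ranged from −0.15 to −0.02, with adjusted p from 0.0284 to 0.799, and always stayed under 1.5-fold. Without a minimum fold, 4 core kinase genes (1 with it) and 17 upstream regulators (8 with it) passed. At 2-fold, 5 upstream regulators, 0 Vestigial-like genes (1 before) and 5 further targets (9 before) passed. The shares of all tested genes that pass without a minimum fold or at 2-fold were not computed. These counts therefore cannot be set against a background and say nothing particular about the lists. Of the other CCN genes, 2 passed under DESeq2, 2 without a filter and 0 with the minimum of 10 counts. Leaving out the mitochondrial genes and the coding length from GENCODE were chosen after seeing the data; the coding length from RefSeq proteins was not run.

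Same-numbered libraries did not deviate together (correlations −0.21 to 0.0085). With the replicate block, 6 of the 10 genes passed as before, with log2 fold changes of −5.15 for WWTR1, −5.01 for AMOTL2 and −0.60 for LATS2. Counts were low for CCN2 (13 to 33 a library) and, in LNCaP-enzaR, for WWTR1 (9 to 19) and AMOTL2 (10 to 19).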
